A study of Mus musculus with 2 samples.

Results

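The 9 mouse genes that encode subunits of the chaperonin CCT (also called TRiC) are Tcp1, Cct2, Cct3, Cct4, Cct5, Cct6a, Cct6b, Cct7 and Cct8. They were taken by gene symbol from the GENCODE M21 annotation of the mouse genome build mm10, and their coverage by H3K36me3 was read from each replicate's own peaks. The background is the 21911 protein-coding genes of chromosomes 1 to 19, X and Y. The annotation types Cct6a as a processed transcript, so it was added by its symbol to the 8 members that are among those genes. H3K36me3, the trimethylation of lysine 36 of histone H3, was mapped by chromatin immunoprecipitation and sequencing in E14TG2a.4. This line of male embryonic stem cells comes from the mouse strain 129/Ola, and its age is labelled as 3.5 days. No treatment is labelled, and the samples form 1 group of 2 biological replicates from separate biosamples. With 1 group there is no contrast between conditions and no test between groups of samples. Values are therefore given for each replicate and as the mean ± SD (n = 2).

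CCT is a barrel of back-to-back rings, each built from 8 different but related subunits, that folds newly made proteins in the cytosol with energy from ATP. Actin and tubulin are its best known clients, and many proteins with WD40 repeats, among them regulators of cell division, also pass through it. Tcp1, Cct2, Cct4 and Cct5 encode subunits on the side of the ring that binds ATP most tightly, and Cct3, Cct6a, Cct7 and Cct8 encode those on the other side. Cct6b encodes a second form of the zeta subunit, known from testis, whose widely used form comes from Cct6a. H3K36me3 is laid down by the enzyme SETD2, which travels with elongating RNA polymerase II, so the mark is known to lie over the bodies of transcribed genes, away from their starts.

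The deposited files hold called peaks and no read counts, so the sequencing depth is unknown. Replicate 1 had 107779 peaks over 139 Mb and replicate 2 had 98185 peaks over 127 Mb on the chromosomes used. The median fold enrichment of a peak, the authors' own value for each peak, was 4.37 in replicate 1 and 5.0 in replicate 2. All 7 embryonic stem cell markers listed, Pou5f1 and Nanog among them, had at least 10% of their body in peaks in each replicate. The 7 fibroblast markers and the 10 markers of haploid male germ cells had no base in a peak in either replicate. Of all coding genes, 37.2% met the first of these rules and 50.1% the second.

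Of the 9 CCT genes 8 were marked, which means that at least 10% of the annotated body lay in peaks in each replicate, and 37.2% of all coding genes were marked by the same rule. The gene that was not marked was Cct6b. Among the marked genes the covered share of the whole annotated span fell into 2 ranges. Tcp1, Cct2, Cct3, Cct4, Cct5, Cct7 and Cct8 lay between 73.7% and 95.4% in every replicate, while Cct6a lay at 13.6% and 13.3%. The Cct6a value follows from the reference: 1 run of 50000 undetermined bases (N) takes up 84.2% of its annotated span. Over its 9374 sequenced bases the share of Cct6a was 85.2% in replicate 1 and 83.2% in replicate 2.

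**Figure D1:**
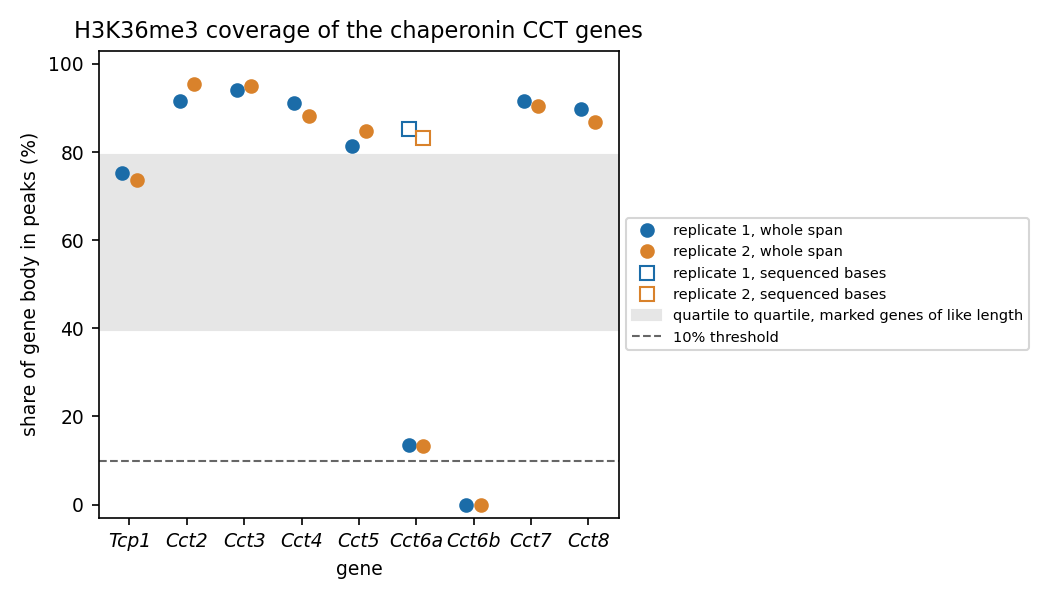
Share of each CCT gene's body in H3K36me3 peaks (%, vertical axis) for each gene (horizontal axis), with 1 filled point per replicate for the whole annotated span and open squares for the sequenced bases of Cct6a. The grey band runs from the lower to the upper quartile (39.7% to 79.4%) of marked coding genes between 9.37 and 24.7 kb long, and the dashed line is the 10% threshold. All filled points but those of Tcp1, Cct6a and Cct6b lie above the band.

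The sequence around the run of N in Cct6a is shown because it sets the value that the rule returns for that gene. The gene lies at chr5:129786998-129846371 on the plus strand of mm10, and the run of N at chr5:129794711-129844710, within an intron. The last 40 sequenced bases before the run and the first 40 after it are in lower case below, with 10 bases of the run on the inner side in capitals. The left stretch is chr5:129794671-129794720 and the right stretch is chr5:129844701-129844750, both on the plus strand.
Cct6a left: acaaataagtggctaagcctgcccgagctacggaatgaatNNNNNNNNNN
Cct6a right: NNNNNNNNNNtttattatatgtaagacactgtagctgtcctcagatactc
On the left the called peaks ended inside the run, at chr5:129794781 in replicate 1 and chr5:129794805 in replicate 2. On the right they began just after it, at chr5:129844774 and chr5:129844732. The largest stretch between neighbouring peaks of Cct6a was 49992 bases in replicate 1 and 49926 bases in replicate 2, close to the length of the run itself. Of the 21911 coding genes, 67 (0.306%) hold any N and 10 hold at least 50% N. Counting sequenced bases in place of the whole span raised the number of marked coding genes from 8155 to 8156.

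Cct6b had no called peak in its body in either replicate. Its body spans 45.1 kb at chr11:82719250-82764321 on the minus strand, and 0 of these bases lay in a peak, as was the case for 50.1% of coding genes. The share was also 0 in the unthresholded peak sets, in the peak sets of both replicates together and over the RefSeq span. Most of this sequence is unique in the genome. The body of Cct6b has no N, 90.5% of its 32-base words and 100% of those in its exons occur once in the genome, against 95.8% and 93.5% for the sequenced bases of Cct6a. The 32 bases are a choice made here, since the read length is not given in the sources used here.

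The difference between the widely used and the testis form therefore depends on which bases of Cct6a are counted. Over the whole annotated spans, Cct6a exceeded Cct6b by 13.4 ± 0.197 percentage points (SD, n = 2), with 13.6 in replicate 1 and 13.3 in replicate 2. Over sequenced bases the difference was 84.2 ± 1.43 points, with 85.2 and 83.2. Both differences were larger than the spread between the replicates, and no test was made of the 2 values.

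The pair can be told apart at the level of sequence. For each gene 1 annotated transcript was compared. That of Cct6a has 13 exons and that of Cct6b has 14, while all annotated exons of Cct6a merge into 15 blocks. In order, 11 internal exons of equal length pair up, and over their 1252 bases 956 (76.4%) are the same, with the longest shared run at 17 bases. Exon 11 of Cct6b has no partner in that Cct6a transcript, and other Cct6a transcripts were not searched. Its neighbours, exons 10 and 12, pair with exons 10 and 11 of Cct6a, and the run of N lies between those exons of Cct6a. Exon 2, the pair most alike at 85.9% identity, is shown as the closest match between the 2 genes. It is 64 bases long in both genes, and the 9 bases that differ are in capitals. The Cct6a exon is chr5:129788234-129788297 on the plus strand and the Cct6b exon is chr11:82762188-82762251 on the minus strand, both in mm10 and read 5′ to 3′ along the gene.
Cct6a exon: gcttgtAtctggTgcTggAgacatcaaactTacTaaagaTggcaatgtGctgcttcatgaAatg
Cct6b exon: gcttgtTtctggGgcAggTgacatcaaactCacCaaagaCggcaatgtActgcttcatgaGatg
The longest stretch these exons share is 11 bases, shorter than the 32-base words counted above.

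Peaks lay upstream of Cct6b but not in it. Zfp830, a zinc finger gene, starts 23 bases from the start of Cct6b on the other strand and is 1.59 kb long. It was covered over 33.1% of its body in replicate 1 and 0.503% in replicate 2, so it was not marked in each replicate. The 5 kb upstream of Cct6b were covered by 60.3% in replicate 1 and 45.5% in replicate 2, while the 1 kb centred on its start held no covered base in either.

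The genes for the tight-binding side of the ring are described next. Cct2 (beta subunit, chr10:117051001-117063814, minus strand) was covered over 91.5% of its 12.8 kb in replicate 1 and 95.4% in replicate 2, a mean of 93.4 ± 2.70%. Cct4 (delta subunit, chr11:22990519-23003780, plus strand) had 91.1% and 88.2%, a mean of 89.7 ± 2.10%. Cct5 (epsilon subunit, chr15:31590800-31601804, minus strand) had 81.5% and 84.9%, a mean of 83.2 ± 2.38%. These 3 genes overlap no other coding gene. Tcp1 (alpha subunit, chr17:12915701-12925067, plus strand) was the lowest of the 7 coding members that were marked, with 75.2% and 73.7%, a mean of 74.4 ± 1.06%. Its span overlaps a coding gene at each end, Mrpl18 by 645 bases and Acat3 by 1255 bases, and outside them its share was 79.6 ± 0.777%.

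On the other side of the ring, Cct3 (gamma subunit, chr3:88297116-88321767, plus strand) had the highest mean of the members, 94.6 ± 0.594%, with 94.2% in replicate 1 and 95.0% in replicate 2. It is also the longest of the coding members that were marked, at 24.7 kb. Cct7 (eta subunit, chr6:85451514-85468475, plus strand) had 91.7% and 90.4%, a mean of 91.0 ± 0.946%. Its start overlaps the coding gene Pradc1 by 457 bases, and outside Pradc1 its share was 93.5 ± 0.973%. Cct8 (theta subunit, chr16:87483326-87495873, minus strand) had 89.8% and 86.7%, a mean of 88.2 ± 2.15%. In the order of means Cct3, Cct2, Cct7, Cct4, Cct8, Cct5 and Tcp1, neighbours differed by less than the larger of their SDs except for Cct8 over Cct5 and Cct5 over Tcp1. Of the 8 marked members 5 were higher in replicate 1 and 3 in replicate 2.

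Set beside other marked genes, these shares were high. Marked coding genes of 9.37 to 24.7 kb, the length range of the 7 coding members, number 2671, and their mean share over the replicates had a median of 61.9% and an upper quartile of 79.4%. That upper quartile was passed by 6 of the 7 coding members, and Tcp1 lay below it. The place of Tcp1 depends on the span used. Its mean share was 80.3% over the transcript with the longest coding sequence and 79.8% over the RefSeq span. Both lie above that quartile, which was taken over GENCODE spans. Cct3 had a higher share than 98.7% of all marked coding genes in replicate 1 and 99.2% in replicate 2. For Tcp1 the same figures were 73.8% and 74.7%. These are descriptions of where the members fall, and no test was made of them.

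The mark formed nearly unbroken blocks over the members. Cct5 was covered by 1 peak of 10.2 kb in replicate 1, which began 2.04 kb after the start. The widest peak on Cct3 measured 16.5 kb in replicate 1 and 16.0 kb in replicate 2, and 0.130% and 0.151% of all peaks in those replicates were wider. The widest peaks on Cct7 measured 14.4 kb in both, with 0.226% and 0.242% of peaks wider. Cct4 differed most, with 6.58 kb in replicate 1 and 11.98 kb in replicate 2, because a peak called as 1 in replicate 2 was split in replicate 1. Stretches between neighbouring peaks within the body were 251 bases or shorter in every marked member once the run of N in Cct6a was left out.

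**Figure D2:**
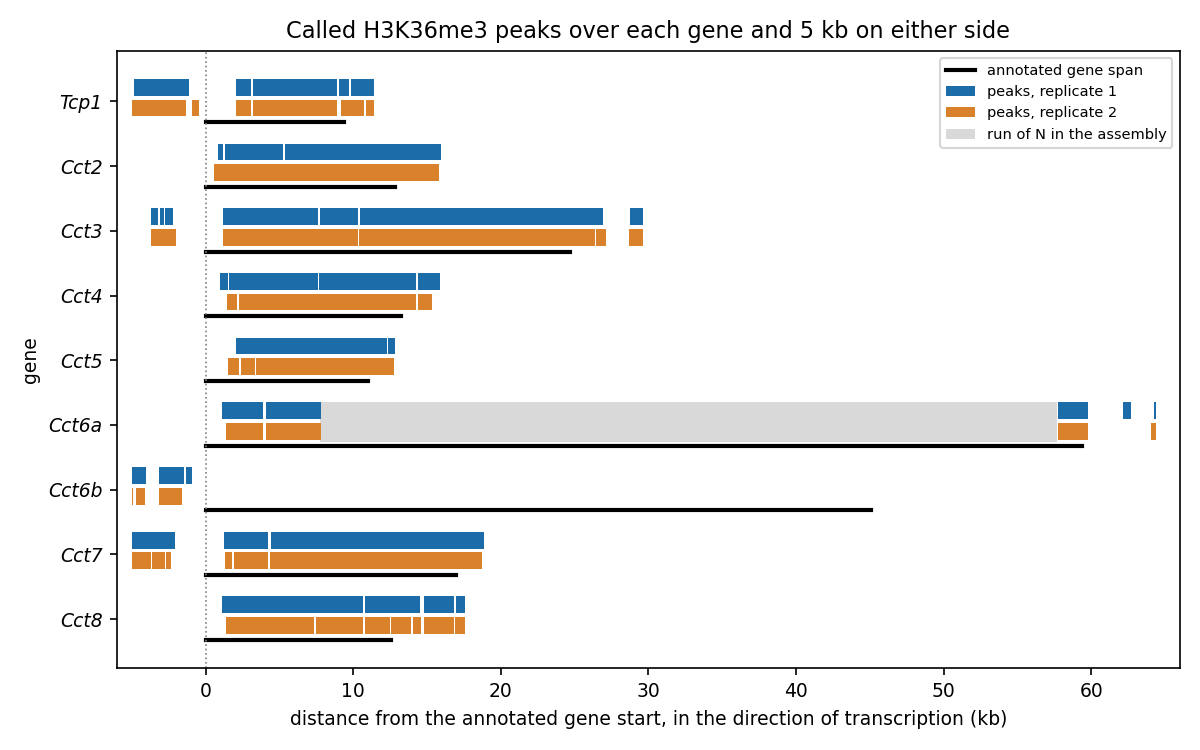
Peaks called in replicate 1 (blue) and replicate 2 (orange) along each CCT gene, drawn from 5 kb before the annotated start to 5 kb past the end (horizontal axis, kb from the start, in the direction of transcription). Black lines are annotated spans and the grey block is the run of N in Cct6a. Each marked gene has a bare stretch at its start and peaks past its end, and Cct6b has no peak in its body.

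From the first covered base to the annotated end, coverage was close to complete. All 7 marked coding members had at least 90% of these bases in peaks in each replicate, which 23.6% of marked coding genes of at least 3 kb did. The values ran from 94.3% in Tcp1 to 100% in Cct5, and Cct6a had 96.7% and 97.7% over its sequenced bases. The median over marked genes of at least 3 kb was 73.7% in replicate 1 and 71.4% in replicate 2. In the length range of the coding members it was 80.2% and 78.9%. With so few bases bare after the first covered one, the share of a member was set mainly by the distance to it, which took up 21.7 ± 0.219% of the body in Tcp1 and 4.72 ± 0.0115% in Cct3.

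The first covered base lay between 0.547 and 2.05 kb into the marked members. The distance from the annotated start to the first covered base was shortest in Cct2, with 0.827 kb in replicate 1 and 0.547 kb in replicate 2. It was 1.17 and 1.16 kb in Cct3, 0.995 and 1.42 kb in Cct4, and 1.23 and 1.31 kb in Cct7. Cct6a had 1.12 and 1.39 kb, and Cct8 had 1.13 and 1.36 kb. Apart from Cct2 these genes lay close together, and several differed from each other by less than their replicates did. The longest distances were 2.02 and 2.05 kb in Tcp1 and 2.04 and 1.496 kb in Cct5. For Tcp1 this holds from the GENCODE start. Its RefSeq promoter window, chr17:12916079-12916378, lies inside the GENCODE span, so the distance from the RefSeq start is shorter. The median over the 8 marked members was 1.15 kb in replicate 1 and 1.38 kb in replicate 2, against 2.16 and 2.39 kb over marked genes of at least 3 kb. Among marked genes of like length the lower quartile of the mean distance was 1.47 kb, and 5 of the 7 coding members lay below it. In the 1 kb centred on the annotated start, no base was covered in 7 of the 8 marked genes, and Tcp1 had 0% in replicate 1 and 4.6% in replicate 2.

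The promoter of Cct2 is shown because this gene had the shortest bare stretch. The RefSeq promoter table for GRCm38.p6, the assembly that mm10 names, had entries for 8 of the 9 genes, each 300 bases long, and Cct4 is named only. The first Cct2 entry reaches 50 bases past the RefSeq start, and its 250 bases upstream of that start are chr10:117063853-117064102, printed along the minus strand. Capitals mark the GC box, searched as GGGCGG on one strand and CCGCCC on the other.
Cct2 promoter: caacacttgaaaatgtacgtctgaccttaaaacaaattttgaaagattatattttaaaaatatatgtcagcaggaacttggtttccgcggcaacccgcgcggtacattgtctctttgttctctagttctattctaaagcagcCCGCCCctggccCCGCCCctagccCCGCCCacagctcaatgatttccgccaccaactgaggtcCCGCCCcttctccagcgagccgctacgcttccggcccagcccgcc
This window held 5 GC boxes in its 300 bases, 4 of them in the bases shown, and 35.7% of the 32851 promoters in the table held at least 1. Of the 8 genes with entries 7 held a GC box in at least 1 window, and Cct6b held none. Cct2 and Cct5 have more than 1 window each, while the shares of all promoters count every window by itself. The CCAAT box, searched as CCAAT and ATTGG, was found in Tcp1, Cct3, Cct6a, Cct6b and Cct7, and in 37.4% of all promoters. A heat shock element, searched as GAANNTTC, was found in a second window of Cct2 and in 7.86% of all promoters. Its inverted form, TTCNNGAA, was found in Cct5 and Cct6a and in 8.52% of all promoters. A match is a description of the letters in a window and not of a bound site.

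Along the body the members filled early. Each body was divided into 10 equal parts. In the first part the marked members had a mean coverage of 17.9% in replicate 1 and 16.6% in replicate 2, near the 13.6% and 11.3% of all marked genes of at least 3 kb. In the second part the members rose to 73.5% and 71.9%, against 35.9% and 31.8%. In the fifth part all marked genes stood at 59.3% and 56.3%. With the body divided into 3 parts, 5 of the 8 marked members were covered over every base of the 3′ part in both replicates. In Tcp1 and Cct5, the genes with the longest bare stretch, coverage of the 3′ part was higher than that of the 5′ part by 60.0 ± 0.476 and 50.5 ± 7.15 points. In Cct3 and Cct2 the difference was 15.1 ± 1.31 and 18.0 ± 5.73 points. Cct6a changed sign with the bases counted, from a mean of -23.9 points over the whole span to 38.8 points over sequenced bases.

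**Figure D3:**
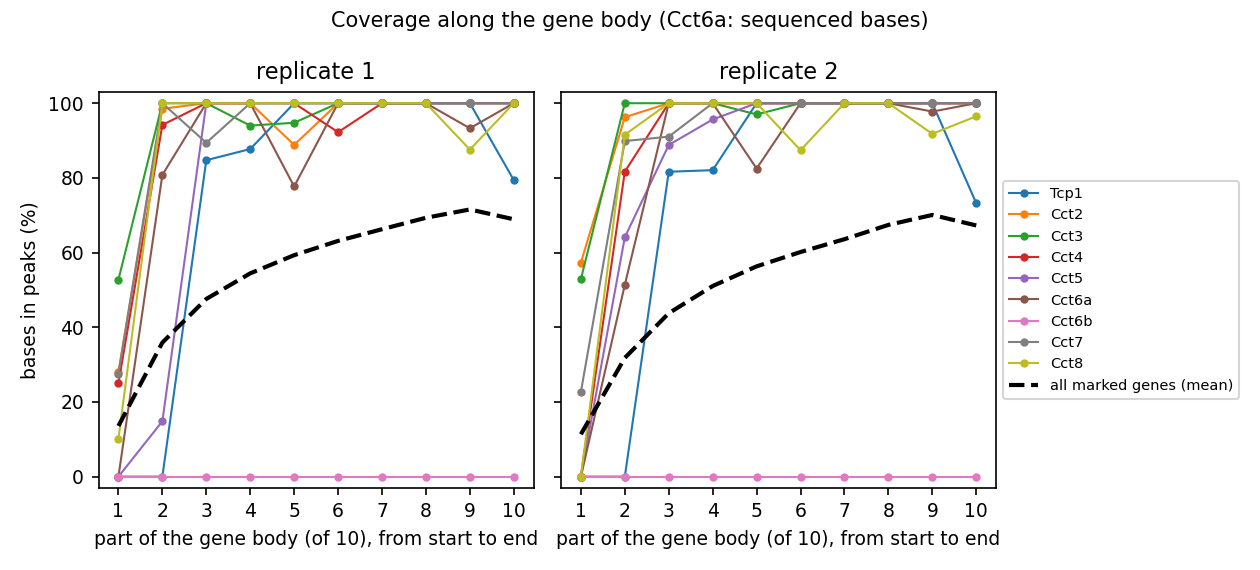
Percent of bases in peaks (vertical axis) in each of 10 equal parts of the gene body from start to end (horizontal axis), in replicate 1 (left) and replicate 2 (right), with 1 line per CCT gene and a dashed line for the mean of marked coding genes of at least 3 kb. Cct6a is drawn over its sequenced bases. The 8 marked genes are at 73% or more from the third part on, and Cct6b is at 0 throughout.

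At the other end, coverage ran past the annotated end in all 8 marked members in each replicate, as it did in 58.0% of marked coding genes of at least 3 kb. Run-on was measured by walking downstream over peaks no more than 1 kb apart. It was 3.10 and 2.96 kb in Cct2, 2.30 and 2.46 kb in Cct3, and 2.60 and 2.05 kb in Cct4. Tcp1 had 2.06 and 2.05 kb, Cct7 had 1.88 and 1.74 kb, and Cct5 had 1.80 and 1.73 kb. All 7 coding members lay above the median of marked genes of like length, 0.748 kb. The means of Cct2, Cct3 and Cct8 lay above its upper quartile of 2.37 kb, but that of Cct3, 2.38 ± 0.115 kb, passed it by less than its SD. The run-on of Tcp1 lies within Acat3, which overlaps its end. Cct6a had the shortest run-on, 0.432 and 0.398 kb, and the next coding gene downstream on its strand, Sumf2, starts 614 bases after its end. Cct8 had by far the longest, 23.7 and 24.2 kb. Its end overlaps by 192 bases the end of Usp16, a ubiquitin protease gene on the other strand whose body was covered over 71.7% and 70.2%, so the marks of the 2 genes cannot be told apart there.

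**Figure D4:**
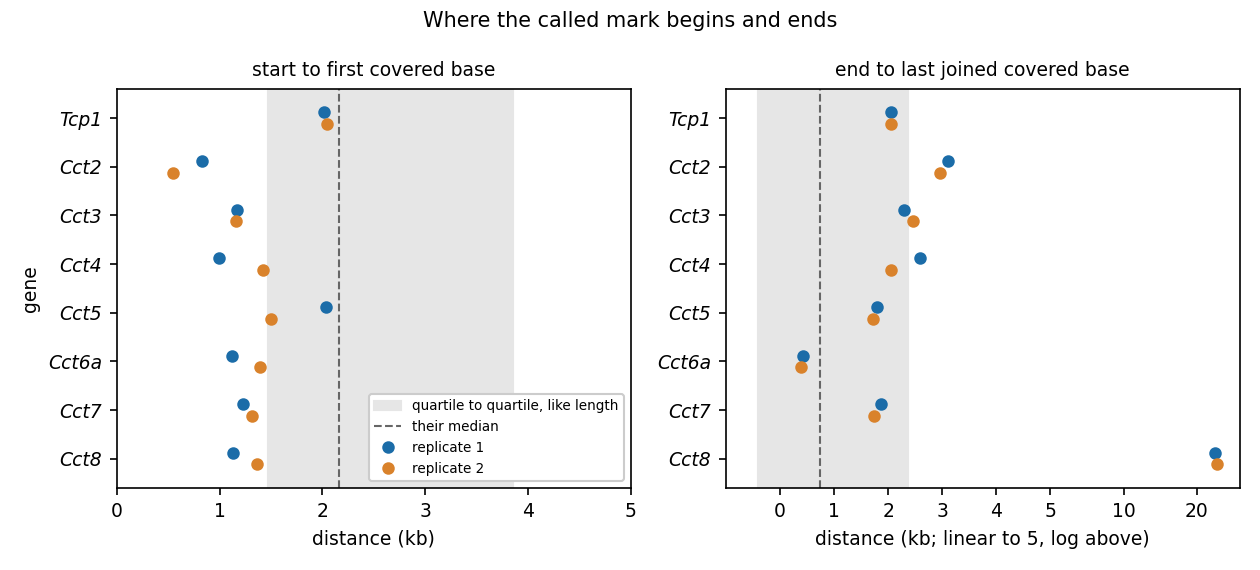
Distance from the annotated start to the first covered base (left) and from the annotated end to the last covered base reached downstream (right), in kb, with 1 point per replicate for each marked CCT gene. Grey bands run from the lower to the upper quartile and dashed lines mark the median of marked coding genes between 9.37 and 24.7 kb long. The right axis is linear up to 5 kb and logarithmic above, and Cct8 stands apart at 23.7 and 24.2 kb.

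Exons and introns of the members were covered to a similar degree once sequenced bases were counted. Over the whole spans of the 8 marked members, pooled exon coverage was 83.3% and 82.9% and pooled intron coverage 55.1% and 55.1%, a ratio of 1.51 in both replicates. Over sequenced bases intron coverage was 91.5% and 91.4%, and the ratio fell to 0.911 and 0.907. Without Cct6a it was 0.914 and 0.910. The ratio thus crossed 1 with the treatment of a single intron. Leaving out the first exon block as well, which was bare in 6 of the 8 marked members, gave 1.03 in both replicates over sequenced bases. With the first block counted, marked coding genes of like length had 1.18 and 1.23 and all marked coding genes 1.48 and 1.61. With it left out, those of like length had 1.29 and 1.35, and all marked coding genes 1.60 and 1.74.

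Single members departed from the pooled values. In Tcp1 exons had the higher share, 84.5% and 82.3% against 64.4% and 63.7% of introns. In Cct7 introns had the higher share, 99.9% and 100% against 79.4% and 75.9% of exons, and in Cct3 98.5% and 99.6% against 81.7% and 81.8%. Past the first exon block every exon base of Cct3, Cct4 and Cct7 lay in a peak in both replicates. The last exon block was wholly covered in both replicates in Cct2, Cct3, Cct4, Cct5, Cct6a and Cct7. In Tcp1, whose end overlaps Acat3, it was covered over 76.1% and 68.9%.

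Enrichment moved the same way between the replicates in every marked member, while the covered share rose in some and fell in others. Over all marked coding genes the median covered share was 57.1% in replicate 1 and 52.9% in replicate 2. The mean fold over the body, with bases outside peaks set to 0, was higher in replicate 2 in all 8 marked members. It was 10.8 and 16.0 in Cct2, 9.38 and 15.3 in Cct7, and 6.97 and 12.4 in Cct8. Over all marked coding genes the median moved the same way, from 3.55 to 4.11. The smallest differences were in Tcp1, with 9.49 and 10.1, and in Cct4, with 9.07 and 9.74. Cct6a had 1.54 and 1.83 over its whole span, below the median of all marked coding genes, and 9.64 and 11.4 over its sequenced bases. With Cct6a taken over sequenced bases, each of the 8 had a larger body fold than at least 82.7% of marked coding genes in each replicate. The highest single peak among the members was on Cct5 in replicate 2, with a fold of 19.8. The depth of each library, which is unknown, was not tested for its part in these differences.

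Members often stood head to head with another gene. In 6 of the 9 a coding gene in divergent orientation had its start within 1 kb, as did 10.8% of coding genes. Mrpl18, a mitochondrial ribosomal protein gene, overlaps the start of Tcp1 by 645 bases. Psph, a gene of serine synthesis, overlaps that of Cct6a by 452 bases, and Pradc1 that of Cct7 by 457 bases. Without overlap, Tsacc starts 116 bases from Cct3, Fam173b 47 bases from Cct5 and Zfp830 23 bases from Cct6b. The coverage of these partners varied. Mrpl18 had 64.8% and 69.0%, Pradc1 50.1% and 41.7%, Tsacc 36.2% and 41.5%, and Psph 37.4% and 20.6%. Fam173b had 1.95% and 0%, beside Cct5 with over 81% in both replicates. Tcp1 was the member with the most coverage before its start, 74.9% and 81.9% of the 5 kb upstream, which the body of Mrpl18 overlaps.

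Coverage could end sharply between a member and its neighbours. Among the 23 nearest or overlapping coding neighbours of the 9 genes, 13 were marked, beside 37.2% of all coding genes. Acat3, which overlaps the end of Tcp1, is among the 13 with 18.0% and 17.3%. Its coverage cannot be told apart from the peaks and run-on of Tcp1. Downstream of Cct2, the heart gene Lrrc10 lies 4.23 kb away and had 0% in both replicates. Fam161a, 3.75 kb downstream of Cct4, also had 0%. Cmbl ends 0.680 kb past the end of Cct5 and had 4.22% in both replicates, and Fbxo41 ends 1.10 kb past the end of Cct7 and had 2.33% and 1.93%. The run-on of Cct5 and Cct7 is longer than those distances, so the coverage of these 2 neighbours cannot be told apart from it. Upstream of Cct4, Commd1 had 10.1% and 8.90%, just above and just below the threshold.

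The wider folding pathway was read from lists of genes. Over all coding genes the median share was 0% in each replicate, and 37.2% were marked. Prefoldin hands unfolded actin and tubulin to CCT, and all 9 prefoldin and prefoldin-like genes were marked. Pdrg1 was the highest with 84.1% and 83.1%. Pfdn2 had 60.8% and 49.5% and Pfdn5 52.9% and 49.7%, while Pfdn4 was the lowest with 20.5% and 15.8%. Pfdn2, Pfdn4 and Pfdn5 each overlap another coding gene, where the marks cannot be told apart. The median of the list was 44.5% and 38.6%, well under that of the CCT genes, 89.8% and 86.7%. Of the phosducin-like proteins, which assist CCT, 3 of 5 genes were marked, with Txndc9 at 79.7% and 76.9% and Pdcl at 76.1% and 71.8%. Pdc, known from the retina, and Pdcl2, known from germ cells, had 0%. All 8 genes of the Hsp90 system and its R2TP partner complex were marked. Stip1, which links Hsp70 to Hsp90, had 94.4% and 93.8%, and Hsp90aa1, the inducible Hsp90, was the lowest with 37.5% and 39.8%.

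The listed clients of CCT are given by list, beside the 37.2% of all coding genes that were marked. The lists were chosen with earlier results of these data known, so a difference between them is not one between client families. All 15 WD40 repeat and other listed clients were marked, and Fzr1 was the highest with 91.7% and 90.4%. Next by the lower replicate came Plk1 with 89.6%, Ccne1 with 87.1% and Cdc20 with 85.8%. The lowest were Gnb5 with 15.7% and 10.9%, near the threshold, and Rptor with 45.9% and 34.0%. Of 23 actin and tubulin genes 13 were marked, among them Tubb4b with 71.7% and 81.7%, Tubb5 with 70.8% and 71.8% and Actb, a cytoplasmic actin, with 67.4% and 69.9%. The muscle actins Acta1 and Acta2 had 0% in both replicates. Of the tubulin cofactors, which join tubulin subunits after CCT, 5 of 6 were marked, and Tbca had 16.0% and 9.64%. Among chaperonin-like genes 4 of 5 were marked, with Bbs10 at 49.3% and 50.8%, and Cct8l1, a chaperonin-like gene of a single exon block, at 0%. The mitochondrial chaperonin genes Hspd1 and Hspe1 were marked with 84.1% and 78.7%, and 74.9% and 71.3%. Hsf1 and Hsf2, which encode heat shock factors, had 59.9% and 45.6%, and 44.9% and 39.9%. Of the marked genes given values here, Fzr1, Cdc20, Tubb4b, Hspd1 and Hspe1 overlap another coding gene, where the marks cannot be told apart.

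**Figure D5:**
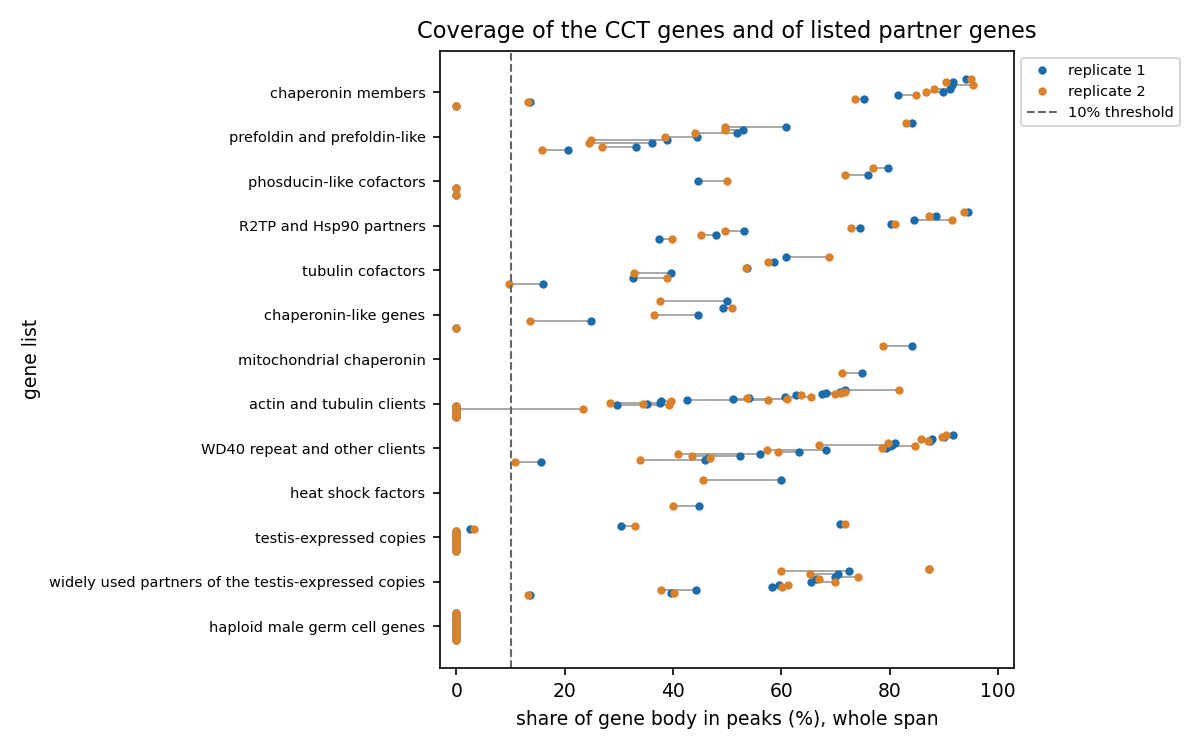
Share of the gene body in peaks (%, horizontal axis, whole annotated span) for every gene of the CCT list and of each partner list (vertical axis), with a point for each replicate joined by a line. The dashed line is the 10% threshold. The CCT genes lie above 73% apart from Cct6a and Cct6b, and the prefoldin genes lie mostly between 15% and 61%.

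Cct6b was set beside 11 other testis-expressed copies of widely used genes. Of these 11 copies 2 were marked and 8 had no covered base in either replicate, beside 37.2% and 50.1% of all coding genes. All 10 of their widely used partners were marked. In 10 of the 11 pairs the partner had the higher share in both replicates. Pgk2, a glycolytic enzyme gene without introns, had 0% against 87.3% in both replicates for Pgk1. Ldhc had 0% against 66.4% and 66.9% for Ldha, and Cyct had 0% against 44.3% and 37.9% for Cycs. Hspa2 and Hspa1l had 0% against 39.7% and 40.2% for Hspa8. Pdha2, Rpl10l and Cox6b2 had 0%, with Pdha1 at 59.6% and 61.2%, Rpl10 at 65.5% and 69.9% and Cox6b1 at 70.5% and 65.2%. Psma8 had 2.45% and 3.27% against 72.5% and 59.9% for Psma7, and Gapdhs had 30.4% and 33.1% against 70.0% and 74.2% for Gapdh. The exception was Cstf2t, with 70.8% and 71.8% against 58.2% and 60.0% for Cstf2. Among the genes of these pairs, Gapdh, Pdha1, Cstf2t and Cstf2 each overlap another coding gene, and where they do, the marks cannot be told apart. With Cct6a counted among the partners, it had the lowest share of the 11 by whole spans. Over sequenced bases it stood at 85.2% and 83.2%, second to Pgk1.

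The coding genes whose profile over the 10 parts of the body was nearest to the mean of the marked members were named by Euclidean distance over 20 values, 10 in each replicate, among genes of at least 3 kb. With whole spans they were Tex10, Rbm25, Ndufs1, Smarcc1 and Tnks2, with Tex10 nearest at 34.1 points. Over sequenced bases they were Aurka, Cherp, Parl, Srrm1 and Kansl3, at 17.1 to 22.5 points. No gene was on both lists. Aurka, the mitotic kinase Aurora A, came nearest, with 89.5% and 89.7% of its 14.3 kb covered.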

How the data were processed

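The authors deposited narrow peak sets on mm10, per the labels and the file lists deposited beside them, with a fold enrichment (a ratio) for each peak and its p-value and q-value as −log10. The peaks of the main run are supported by pseudoreplicates (random divisions of a library's reads) and were called by the authors for each replicate separately. The unthresholded sets come from other alignments, so that alternative changes both. Aligner, caller and read length were not given in the sources used here. Control libraries were not used here. The 129/Ola cells are of another strain than the reference genome, and the effect of that was not tested.

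Covered shares, gaps, run-on, parts of the body and merged exon blocks were computed on GENCODE M21 with Python 3.11.15, numpy 2.4.6 and pandas 2.3.3, and tested on simulated data. Of several coding records with 1 symbol the longest was kept (27 left out). Runs of N were read from the RefSeq copy of GRCm38. Named genes are the members, their nearest and overlapping coding genes, up to 4 highest and 2 lowest of each list, the testis pairs and the 5 nearest profiles. Not all are given values. The members and lists were chosen with earlier results of these data known.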

Additional observations from a re-analysis of the deposited data

How the results depend on the processing

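No paired analysis was possible because the replicates form 1 group. Alternatives that count sequenced bases, use RefSeq spans, leave out Cct6a or leave out the first exon block were chosen after seeing the data. Counts, covered shares, gaps and ratios cannot be negative, and with Cct6b at 0% neither can Cct6a minus Cct6b. The median run-on and the median difference between the 3′ and 5′ parts can, and both stayed positive under every alternative. The exon to intron ratio crossed 1, as given below. The number of marked members stayed at 7 or 8 except among the 5 members that overlap no other coding gene, where it was 4, against 32.9% of such coding genes; fewer genes are counted there. With 1 replicate at a time, the 5′ gap ranged from 1.15 to 1.38 kb and the run-on from 2.05 to 2.18 kb. The median run-on of 2.11 kb was 2.30 kb with unthresholded sets, 1.55 kb with a walk gap of 0, 2.45 kb with 3 kb and 2.22 kb with RefSeq spans. The exon to intron ratio of 1.51 was 1.497 with −log10 q of at least 5, 1.52 with peaks found in both replicates and 1.53 with RefSeq spans; it was 0.909 over sequenced bases and 0.912 without Cct6a, both of which remove the run of N. It was 1.71 with the first exon block left out, and 1.03 with that block left out over sequenced bases. Cct6a minus Cct6b was 13.7 points with either combined set and 84.2 over sequenced bases. At a threshold of 50% of the body, 40 in place of 73 of 106 partner genes were marked. By list these were prefoldin 1, phosducin-like cofactors 2, R2TP and Hsp90 partners 5, tubulin cofactors 3 and chaperonin-like genes 0. The mitochondrial chaperonin list had 2, actin and tubulin clients 8, and WD40 repeat and other clients 10. Heat shock factors had 0, testis-expressed copies 1, their widely used partners 8 and haploid male germ cell genes 0. The share of all coding genes at other thresholds is not given here, so these counts and those of the members have no background there. Of 63 values of single members under the other settings, 15 moved by more than the replicate SD. Depth is unknown, so a bare stretch is one with no called peak, not one shown to lack the mark.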
